A study of Homo sapiens with 12 samples.

Results

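A set of 10 genes of the immediate early and AP-1 response were described in RNA of the melanoma lines A375 and A375-BIR with and without the BRAF inhibitor dabrafenib. The 10 genes, EGR1, EGR3, IER3, FOS, FOSL1, FOSL2, JUN, JUNB, MAFF and MYC, were taken by symbol from the 33694 human genes listed, and all 10 symbols were found. A375 is an established human melanoma line whose BRAF kinase is mutated and constantly active. A375-BIR is, by its labels, a derivative of that line resistant to BRAF inhibition. How A375-BIR was derived is not given in the sources used here. Both lines were grown in RPMI medium with 10% serum. The 4 groups were A375-BIR with dabrafenib at 200 nM, A375-BIR with 0.1% DMSO, A375 with dabrafenib at 200 nM and A375 with 0.1% DMSO, each for 48 h and each labelled with 3 biological replicates.

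Immediate early genes are transcribed within minutes of a growth factor or stress signal without new protein synthesis. In cells with mutant BRAF, ERK kinase activity drives many of them, through phosphorylation of the ternary complex factors that sit with SRF on promoter elements called CArG boxes. AP-1 is a family of dimers of a JUN protein with a FOS, ATF or MAF family protein. ERK also acts on AP-1 proteins after translation, while the JNK kinases phosphorylate JUN, and AP-1 in turn controls genes of growth, matrix breakdown and inflammation.

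RNA was measured as 3′ tags, reads from the polyadenylated end of transcripts, so a level does not scale with transcript length. A level (CPM) is a tag count scaled to the library total multiplied by that library's scaling factor (TMM). Of the 12 libraries, 10 list human genes and hold 198690 to 1999840 gene counts, with a median of 570083. For A375 DMSO, replicates 2 and 3 come as files that list mouse genes, although the labels state human, and they entered no comparison. A375 with DMSO is therefore 1 library, with no spread of its own and its file carries a time stamp other than the one shared by the other 9. That library also had 20.06% of its reads on no feature, against 28.56% to 30.95% in the other 9, and 52.45% not uniquely aligned, against 39.95% to 49.38%. It was the deepest, with 1999840 gene counts, against 198690 to 493398 in the A375 libraries with dabrafenib. Its TMM factor was 0.8085, against 0.9044 to 1.103 in the other 9. These and the group cannot be told apart wherever the library is used. Mitochondrial genes took 4.88% to 7.21% of counts in A375-BIR with dabrafenib, 4.63% to 5.49% in A375-BIR with DMSO, 10.7% to 15.1% in A375 with dabrafenib and 15.1% in the A375 DMSO library. Melanocyte genes (8 listed) summed to 215 to 315 CPM in A375-BIR with dabrafenib, 197 to 212 CPM in A375-BIR with DMSO, 2843 to 3376 CPM in A375 with dabrafenib and 1442 CPM in the A375 DMSO library. In A375 most of the sum was DCT and SOX10, with means of 1746 and 962 CPM with dabrafenib and 417 and 471 CPM with DMSO. MITF, S100B, PMEL and TYR went the other way, with MITF at 245 CPM with dabrafenib and 411 CPM with DMSO. The melanocyte factors MITF and SOX10 were detected in each group, while MLANA had 1 count in all and TYR had 0 in A375-BIR. Leukocyte, endothelial and erythroid genes summed to at most 4.4 CPM in any library. Fibroblast genes (6 listed) summed to 19.04 to 20.99 CPM in A375-BIR with dabrafenib, 8.46 to 12.1 CPM with DMSO, 11.3 to 30.9 CPM in A375 with dabrafenib and 16.95 CPM in the A375 DMSO library. Among them the collagen gene COL1A2 had 1, 0, 16 and 3 counts in these groups. EdgeR called it higher in A375 with dabrafenib than with DMSO (adjusted p = 0.0251, not called by DESeq2). In dabrafenib it was called lower in A375-BIR than in A375 (adjusted p = 0.00155 by edgeR). COL1A2 passed the filter on low counts only through A375 with dabrafenib, where it was high, so these calls and p support nothing. Keratinocyte genes (4 listed) summed to 25.9 to 69.4 CPM over all libraries, nearly all from KRT10. The part of these genes in the results was not tested. In these bulk samples fewer cells that express a gene and less RNA per cell cannot be told apart.

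The promoter stretches of EGR1, JUN and MAFF are shown because they hold motifs of the factors named above, and because EGR1 and JUN changed in opposite directions in A375 below. Each is the 250 bases before the RefSeq start, 5′ to 3′ on the gene's strand, on GRCh38.p14. GENCODE 29, used for the gene positions in the following, begins JUN and MAFF further upstream, so that these stretches lie inside its JUN and MAFF genes. Capitals in EGR1 mark, in order, 1 EGR site and 2 CArG boxes, and capitals in JUN and MAFF mark a CRE-like site.
EGR1 (chr5:138465229-138465478, + strand): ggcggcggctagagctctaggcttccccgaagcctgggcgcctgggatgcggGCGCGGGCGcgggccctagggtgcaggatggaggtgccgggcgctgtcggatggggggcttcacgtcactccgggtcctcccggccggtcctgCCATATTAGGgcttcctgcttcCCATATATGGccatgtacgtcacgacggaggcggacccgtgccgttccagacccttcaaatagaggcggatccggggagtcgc
JUN (chr1:58784048-58784297, - strand): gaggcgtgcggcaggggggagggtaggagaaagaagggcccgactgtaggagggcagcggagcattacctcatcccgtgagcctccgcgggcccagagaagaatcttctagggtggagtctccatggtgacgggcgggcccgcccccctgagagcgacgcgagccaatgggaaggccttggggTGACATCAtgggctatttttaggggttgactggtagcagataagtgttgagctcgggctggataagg
MAFF (chr22:38201744-38201993, + strand): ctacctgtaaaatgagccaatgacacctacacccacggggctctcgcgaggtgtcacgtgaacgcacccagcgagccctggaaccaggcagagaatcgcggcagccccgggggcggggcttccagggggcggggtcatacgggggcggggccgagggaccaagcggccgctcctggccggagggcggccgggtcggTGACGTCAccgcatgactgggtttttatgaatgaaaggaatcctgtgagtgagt

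Motifs were searched on both strands of windows of 300 bases, which add 50 bases after the start. Of the 10 genes, 6 have such a window in the table, with 2 windows for MAFF. The CArG boxes of EGR1 begin 105 and 83 bases before the start, and 1.29% of all 35116 windows hold a CArG box. The EGR site (GCGNGGGCG) of EGR1 begins 198 bases before the start, and 9.43% of windows hold one. The CRE-like site (TGANNTCA) of JUN begins 67 bases before the start, and 11.5% of windows hold one. That of MAFF begins 54 bases before the start and is the full CRE (TGACGTCA), a subset of the CRE-like letters that 1.85% of windows hold. FOSL2 has an AP-1 site (TGANTCA) at base 5 of the gene, which 7.71% of windows hold. The ETS core (CCGGAA) was found in 1 MAFF window and the E-box (CACGTG) in both, against 17.2% and 7.26% of windows. The windows of FOS and JUNB hold none of these letters. A match describes the letters and is no evidence of binding.

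With dabrafenib 6 of the 10 genes changed in A375, in both directions, and 1 changed in A375-BIR. Calls were made with edgeR's quasi-likelihood test at an adjusted p under 0.05 (Benjamini-Hochberg) over 10236 genes tested. Of the 10 genes 9 passed the filter on low counts: MYC did not, and EGR3 passed only through the A375 DMSO library, so counts over the tested genes are given as description. In A375-BIR, dabrafenib against DMSO, 0 of the 9 were higher, where 1.36% of all genes tested were, and 1 was lower, where 1.1% were. At an unadjusted p under 0.05 there were 0 higher and 3 lower, and DESeq2 called 0 higher and 1 lower. In A375, dabrafenib against DMSO, 2 were higher and 4 lower, where 17.9% and 20.7% of all genes were. Between the lines in dabrafenib, A375-BIR over A375, 2 were higher and 3 lower, where 22.6% and 20.2% of all genes were. Between the lines in DMSO, 2 were higher and 5 lower, where 25.1% and 26.7% were. For the difference between the responses, that of A375-BIR minus that of A375, 3 were higher and 2 lower, where 12.7% and 9.87% of genes were. The comparisons share libraries, so these counts are not independent of each other.

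**Figure D1:**
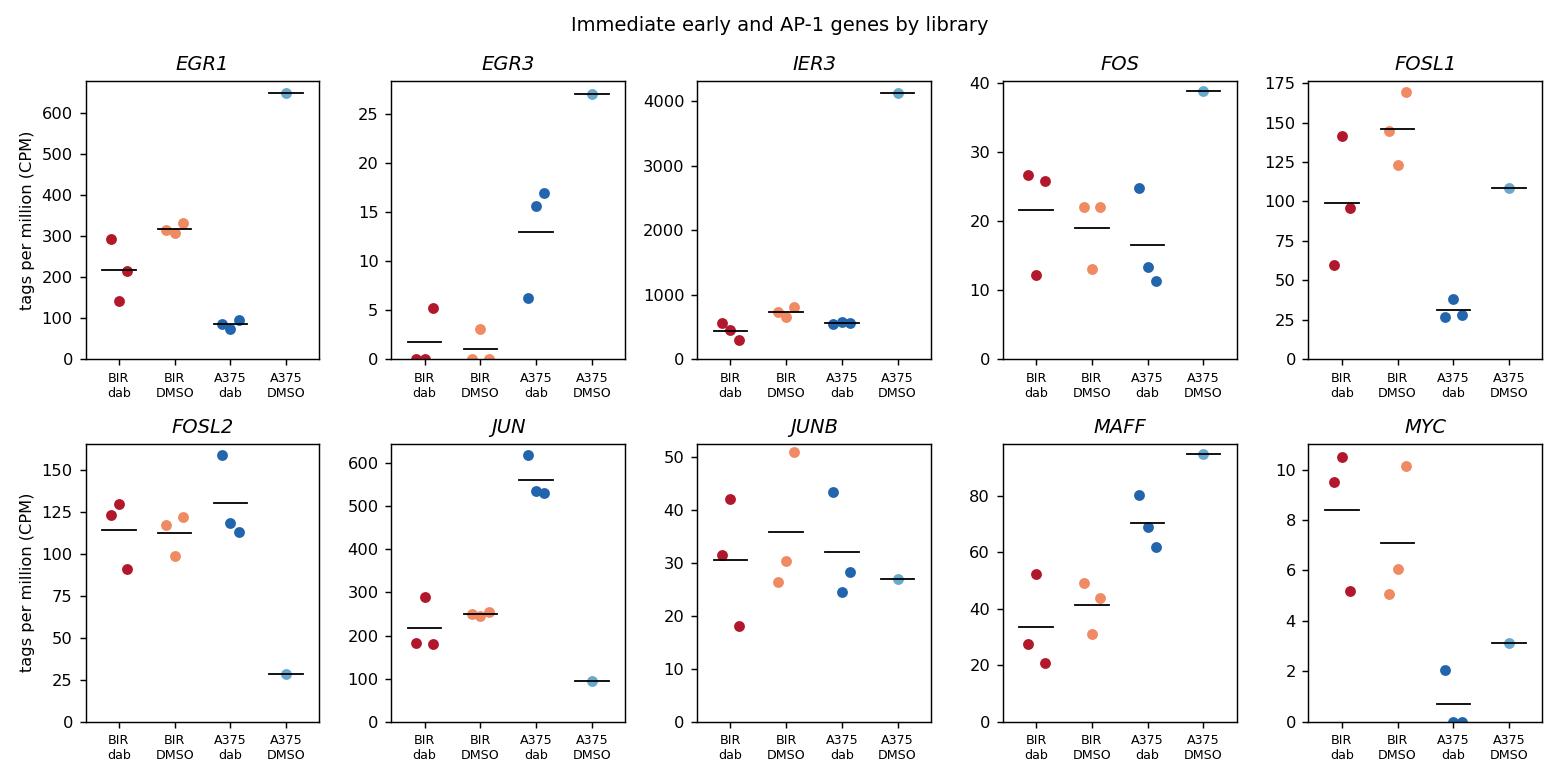
Level of each of the 10 genes by library, in tags scaled to the TMM-scaled library total (CPM). The y axis starts at 0 and has a scale of its own per gene. Groups are A375-BIR with dabrafenib (dab) and with DMSO (n = 3 each), A375 with dabrafenib (n = 3) and A375 with DMSO (1 library). Points are libraries and lines are group means; the line of A375 with DMSO is its single value. The A375 DMSO library is the highest of all 10 for EGR1, EGR3, IER3, FOS and MAFF and the lowest for FOSL2 and JUN.

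EGR1 and EGR3 are zinc finger transcription factors, and EGR1 is among the fastest genes to answer ERK activity. EGR1 (chr5:138465490-138469315 in GENCODE 29 on hg38, protein coding) had 292, 142 and 215 CPM in A375-BIR with dabrafenib and 314, 308 and 332 CPM in A375-BIR with DMSO. It had 84.5, 73.7 and 95.9 CPM in A375 with dabrafenib, against 649.9 CPM in the A375 DMSO library. No pair of groups overlapped, and the order from high to low was A375 with DMSO, A375-BIR with DMSO, A375-BIR with dabrafenib and A375 with dabrafenib. In A375 the gene fell 7.85-fold with dabrafenib (log2 change -2.97 ± 0.26 SE, adjusted p = 2.89e-11). In A375-BIR its change was -0.53 ± 0.18 (95% interval -0.90 to -0.16, adjusted p = 0.126) and did not pass. That value rested on single libraries: it was -0.86 (adjusted p = 0.00957) without the first dabrafenib replicate and -0.29 without the second. A375-BIR was 2.04-fold lower than A375 in DMSO (-1.03 ± 0.23, adjusted p = 0.000261) and 2.66-fold higher than A375 in dabrafenib (1.41 ± 0.23, adjusted p = 5.02e-06). The responses of the lines differed by 2.45 ± 0.32 on the log2 scale (adjusted p = 1.13e-06).

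EGR3 (chromosome 8) was a low-count gene, with 2 counts over the 3 A375-BIR libraries with dabrafenib, 3 over those with DMSO, 13 over those of A375 with dabrafenib and 43 in the A375 DMSO library. The A375-BIR levels were 0, 0 and 5.18 CPM with dabrafenib and 0, 3.02 and 0 CPM with DMSO. In A375 they were 6.19, 15.6 and 16.9 CPM with dabrafenib and 27.0 CPM with DMSO, above every A375-BIR library. From summed counts EGR3 was 11.8-fold lower in A375-BIR than in A375 in dabrafenib (95% counting interval 2.66 to 107) and 24.9-fold lower in DMSO (7.96 to 125). EdgeR's quasi-likelihood test called both and DESeq2 neither. EGR3 was tested only because the A375 DMSO library was high, so its call and p in comparisons with that library support nothing. In dabrafenib, where that library was not compared, the adjusted p was 0.00762, and the call ended without the first A375-BIR (adjusted p = 0.07) or the second A375 library (adjusted p = 0.0637). Within A375 the change with dabrafenib was -1.18 ± 0.63 and did not pass, and within A375-BIR both groups were at or under 3 counts, so no fold is given. At these depths 3 counts summed over a group equal 1.49 CPM in A375-BIR with dabrafenib and 1.09 CPM with DMSO.

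IER3 encodes a small stress-inducible protein that ERK phosphorylates and that acts on cell survival. IER3 (chr6:30743199-30744554, minus strand, protein coding) had the highest mean of the 10 over all libraries, at 563, 458 and 303 CPM in A375-BIR with dabrafenib and 725, 647 and 813 CPM with DMSO. A375 held 536, 574 and 564 CPM with dabrafenib and 4125 CPM in the DMSO library. The A375 DMSO library stood far above the other 9, and A375 with dabrafenib overlapped A375-BIR with dabrafenib. IER3 fell 7.40-fold in A375 (log2 -2.89 ± 0.24, adjusted p = 7.02e-12). In A375-BIR it fell 1.62-fold (-0.70 ± 0.19, adjusted p = 0.0314), the single call among the 9 genes there, and the groups did not overlap. That call ended without any one of the 3 A375-BIR DMSO libraries, without the third A375-BIR library with dabrafenib (-0.50, adjusted p = 0.0924), without the first or the second A375 library with dabrafenib, when only the 2 groups were fitted (-0.68, adjusted p = 0.114), and when genes needed a mean count of at least 50 (-0.67, adjusted p = 0.0735). The third A375-BIR library with dabrafenib also had the smallest share of its reads on genes, 20.4%. Between the lines IER3 was 5.67-fold lower in A375-BIR in DMSO (-2.50 ± 0.23, adjusted p = 2.37e-11), and in dabrafenib the difference was -0.32 ± 0.19 (95% interval -0.71 to 0.08, adjusted p = 0.191). The responses differed by 2.19 ± 0.31 (adjusted p = 3.17e-06).

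FOS, FOSL1 and FOSL2 encode the FOS side of AP-1 dimers. FOS is the short-lived founder of the family, FOSL1 (also FRA1) is a long-lived member that ERK stabilises, and FOSL2 (FRA2) is its relative. FOS (chr14:75278774-75282230) was scarce, at 26.7, 12.3 and 25.9 CPM in A375-BIR with dabrafenib, 22.03, 13.1 and 22.01 CPM with DMSO, 24.7, 13.4 and 11.3 CPM in A375 with dabrafenib and 38.9 CPM in the A375 DMSO library. The A375 DMSO library was the highest, and the other 9 overlapped. FOS was called lower in A375 with dabrafenib (-1.11 ± 0.42, adjusted p = 0.0347) and lower in A375-BIR than in A375 in DMSO (-1.04 ± 0.35, adjusted p = 0.0126). Both calls ended with DESeq2 (adjusted p = 0.176 and 0.143) and with library totals in place of scaling factors (-0.84 and -0.64). They ended also with the replicate number as a block. The first ended also with upper quartile scaling (-1.01) and without the second (-0.89) or the third (adjusted p = 0.0771) A375 library with dabrafenib, and the second without the second A375-BIR DMSO library (-0.82). In A375-BIR the change of FOS was 0.23 ± 0.34 (adjusted p = 0.832).

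FOSL1 (chr11:65892049-65900573, minus strand) had 59.98, 142 and 95.8 CPM in A375-BIR with dabrafenib and 145, 123 and 169 CPM with DMSO. It had 26.8, 37.9 and 28.2 CPM in A375 with dabrafenib and 109 CPM in the A375 DMSO library. The 3 A375 libraries with dabrafenib were below every other library. FOSL1 fell 3.44-fold in A375 (-1.78 ± 0.35, adjusted p = 0.000153) and was 3.02-fold higher in A375-BIR than in A375 in dabrafenib (1.59 ± 0.32, adjusted p = 0.00012). In A375-BIR the groups overlapped through the second dabrafenib replicate, and the change was -0.60 ± 0.22 (adjusted p = 0.158). Without that replicate it was -1.002 (adjusted p = 0.00079), and without the first -0.25 (adjusted p = 0.63). In DMSO the lines differed by 0.41 ± 0.28 (95% interval -0.15 to 0.97, adjusted p = 0.219). The difference between the responses, 1.18 ± 0.42 (adjusted p = 0.0414), passed narrowly, and its call ended in 10 of 17 alternatives, which gave values from 0.77 to 1.94 over all 17. Among them were the fits without the first or the second A375-BIR DMSO library, without the second A375-BIR library with dabrafenib and without any one of the A375 libraries with dabrafenib.

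FOSL2 (chr2:28392448-28417312) moved the other way. It had 123, 129 and 90.6 CPM in A375-BIR with dabrafenib, 117, 98.8 and 122 CPM with DMSO, 159, 118 and 113 CPM in A375 with dabrafenib and 28.3 CPM in the A375 DMSO library. The A375 DMSO library was the lowest by far, while the other 3 groups overlapped. FOSL2 rose 4.70-fold in A375 with dabrafenib (2.23 ± 0.31, adjusted p = 4.88e-07), against a change of 0.06 ± 0.19 in A375-BIR (95% interval -0.32 to 0.44, adjusted p = 0.939). The responses differed by -2.17 ± 0.36 (adjusted p = 3.69e-05). A375-BIR was 3.95-fold higher than A375 in DMSO (1.98 ± 0.29, adjusted p = 7.63e-07), and in dabrafenib the lines differed by -0.19 ± 0.21 (adjusted p = 0.466).

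JUN and JUNB encode the partners that every FOS protein needs. JUN (chr1:58780788-58784327, minus strand) is a strong activator, and its own promoter is known to be bound by JUN and ATF dimers. JUN had 184, 289 and 181 CPM in A375-BIR with dabrafenib and 250, 246 and 254 CPM with DMSO. It had 619, 536 and 530 CPM in A375 with dabrafenib and 95.5 CPM in the A375 DMSO library. A375 with dabrafenib was above and the A375 DMSO library below every A375-BIR library. JUN rose 5.90-fold in A375 with dabrafenib (2.56 ± 0.28, adjusted p = 3.43e-09). In A375-BIR it changed by -0.20 ± 0.18 (95% interval -0.56 to 0.16, adjusted p = 0.677), and the responses differed by -2.76 ± 0.32 (adjusted p = 9.36e-08). A375-BIR was thus 2.61-fold higher than A375 in DMSO (1.39 ± 0.26, adjusted p = 3.25e-05) and 2.59-fold lower in dabrafenib (-1.37 ± 0.18, adjusted p = 6.94e-08).

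JUNB (chr19:12791496-12793315), a weaker activator that often restrains JUN, had the narrowest range of group means. It had 31.4, 42.0 and 18.1 CPM in A375-BIR with dabrafenib, 26.3, 30.2 and 50.8 CPM with DMSO, 43.3, 24.6 and 28.2 CPM in A375 with dabrafenib and 27.0 CPM in the A375 DMSO library, and all groups overlapped. None of its 5 comparisons was called by edgeR or by DESeq2, with changes from -0.38 to 0.32 and unadjusted p under 0.05 in 0 of them. The gene HOOK2, on the other strand, overlaps JUNB and had 215 counts in all, against 235 for JUNB. The strand setting of the counting is not given in the sources used here, so reads of the 2 genes may not be fully separated.

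**Figure D2:**
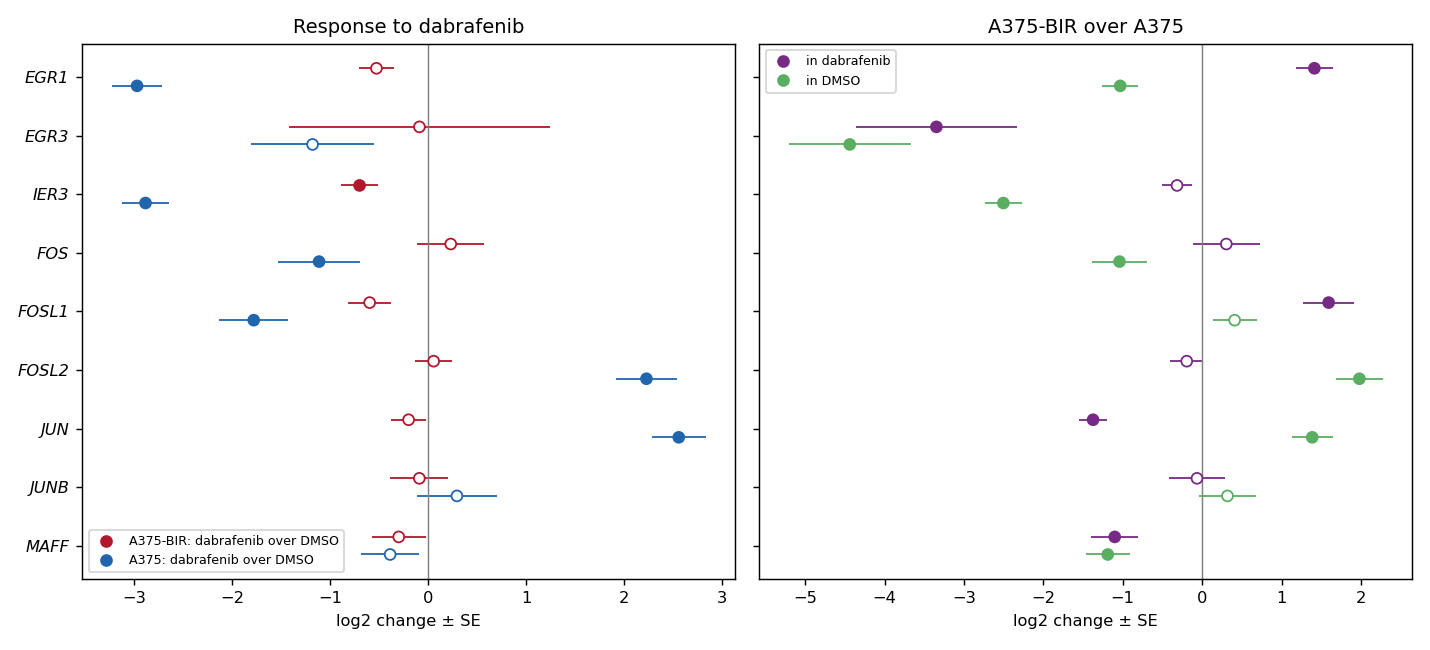
Log2 change ± SE (x axis) of the 9 tested genes (y axis). The left panel gives the response to dabrafenib in A375-BIR (red) and in A375 (blue), and the right panel gives A375-BIR over A375 in dabrafenib (purple) and in DMSO (green); filled points passed an adjusted p under 0.05 in edgeR's quasi-likelihood test. EGR1, IER3, FOS and FOSL1 lie left of 0 and FOSL2 and JUN right of 0 for A375, while IER3 is the single filled point of A375-BIR on the left. Fitted values of EGR3, with 2 and 3 counts in the A375-BIR groups, depend on the fit's prior count.

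MAFF encodes a small MAF protein, which has no activation domain and pairs with AP-1 and NRF family proteins. MAFF (chr22:38200767-38216511) had 27.6, 52.5 and 20.7 CPM in A375-BIR with dabrafenib and 49.2, 31.3 and 44.0 CPM with DMSO. It had 80.4, 69.2 and 62.1 CPM in A375 with dabrafenib and 94.8 CPM in the A375 DMSO library, all above the A375-BIR libraries. MAFF was 2.14-fold lower in A375-BIR than in A375 in dabrafenib (-1.10 ± 0.29, adjusted p = 0.00249) and 2.28-fold lower in DMSO (-1.19 ± 0.28, adjusted p = 0.000547). The first call ended when all libraries were thinned to the smallest (-0.81, adjusted p = 0.174). Neither response passed (-0.30 ± 0.28 in A375-BIR, adjusted p = 0.695, and -0.39 ± 0.30 in A375, adjusted p = 0.317). MAFF was thus called between the lines under both treatments and in neither response. PLA2G6 overlaps it on the other strand and had 59 counts in all, against 414 for MAFF.

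MYC (chr8:127735434-127741434), the growth-promoting factor whose protein ERK stabilises, had 42 counts over all 10 libraries and was not tested. It had 9.52, 10.5 and 5.18 CPM in A375-BIR with dabrafenib, 5.08, 6.05 and 10.2 CPM with DMSO, 2.06, 0 and 0 CPM in A375 with dabrafenib and 3.14 CPM in the A375 DMSO library. Each A375-BIR library was above each A375 library. In summed counts this was 18 in A375-BIR and 1 in A375 with dabrafenib, a ratio of 9.95 with a 95% counting interval of 1.57 to 415. With DMSO there were 18 counts in A375-BIR and 5 in the A375 library. Counting intervals cover counting error and not the spread between cultures.

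Within the FOS family the leading member differed between the groups. The shares described here were chosen after the counts were seen and carry no test, and being ratios of tags within a library they do not depend on the scaling. FOSL1 made up 23.1%, 47.4% and 34.9% of FOS, FOSB, FOSL1 and FOSL2 tags in A375-BIR with dabrafenib and 45.8%, 45.2% and 50.8% with DMSO. It made up 12.6%, 21.8% and 18.5% in A375 with dabrafenib and 55.4% in the A375 DMSO library (exact 95% interval 49.7% to 61%). FOSL1 led in the A375 DMSO library and FOSL2 in A375 with dabrafenib, where FOSL2 averaged 72.3% ± 3.8 (SD, n = 3), against 14.4% in the A375 DMSO library. In A375-BIR FOSL2 averaged 41.2% ± 7.38 with dabrafenib and 36.6% ± 0.361 with DMSO (SD, n = 3 each). The summed level of the 4 genes was 278 ± 19.9 CPM in A375-BIR with dabrafenib, 307 ± 31.6 CPM with DMSO, 179.6 ± 30.4 CPM in A375 with dabrafenib (SD, n = 3 each) and 196 CPM in the A375 DMSO library. FOSB, another short-lived FOS protein, had 86 counts in A375-BIR and 3 in A375 with dabrafenib, a ratio of 15.8 (95% counting interval 5.24 to 78.3, adjusted p = 1.14e-05 in edgeR's test). FOSB passed the filter on low counts only through A375-BIR libraries, where it was high, so that p supports nothing.

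In the JUN family, JUN made up 36.8%, 37.8% and 21.7% of JUN, JUNB and JUND tags in A375-BIR with dabrafenib and 35.1%, 38.1% and 34.8% with DMSO. It made up 59.6%, 58.1% and 51.1% in A375 with dabrafenib and 36.8% in the A375 DMSO library. JUN was thus the leading JUN gene in A375 with dabrafenib and JUND, a constitutively expressed member, in each of the other libraries. JUND itself rose 2.91-fold in A375 with dabrafenib (1.54 ± 0.31, adjusted p = 0.000197), and the 3 genes summed to 999 ± 66.9 CPM there (SD, n = 3), against 259 CPM in the A375 DMSO library. In A375-BIR the sum was 700.1 ± 177 CPM with dabrafenib and 696 ± 44.5 CPM with DMSO (SD, n = 3 each).

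**Figure D3:**
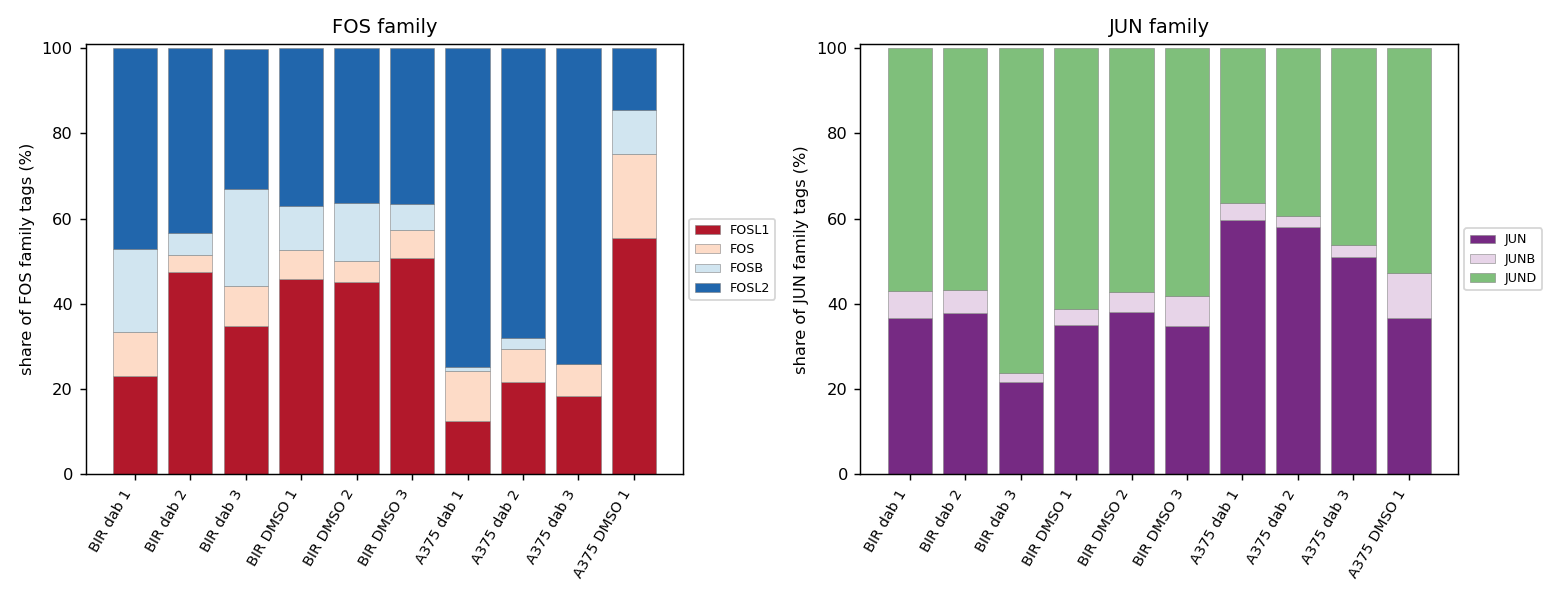
Share of each gene (y axis, percent) in the tags of the FOS family (left) and the JUN family (right), 1 bar per library (x axis, dab is dabrafenib). FOSL2 takes 67.9% to 74.8% of the FOS family in A375 with dabrafenib and 14.4% in the A375 DMSO library, and the 6 A375-BIR bars lie between them at 33.0% to 47.3%.

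Other AP-1 genes moved in both directions in A375. Of 14 listed, 10 were tested, and with dabrafenib against DMSO 5 were higher and 3 lower in A375, where 17.9% and 20.7% of all genes were (median log2 change 0.78 over the 10, against 0 over all genes). MAFG, a small MAF gene, rose 4.38-fold (2.13 ± 0.29, adjusted p = 3.75e-07), and ATF3, a stress-induced repressor, rose 2.67-fold (1.42 ± 0.34, adjusted p = 0.00131), while MAFK, another small MAF gene, fell 2.73-fold (-1.45 ± 0.30, adjusted p = 0.000243). In A375-BIR 1 of the 10 was higher and 0 lower, where 1.36% and 1.1% of all genes were (median 0.20, against 0.02), with 3 at an unadjusted p under 0.05, and DESeq2 also called 1 higher and 0 lower. That gene was MAF, a large MAF factor, at 30.9 ± 11.2 CPM with dabrafenib and 9.85 ± 1.29 CPM with DMSO (SD, n = 3 each, 1.47 ± 0.35, adjusted p = 0.0127), and its call ended in 6 of 18 alternatives, among them the fits without any one of the A375-BIR DMSO libraries and without the second A375-BIR library with dabrafenib. Between the lines MAF was lower in A375-BIR in dabrafenib (-2.35 ± 0.26, adjusted p = 1.79e-09) and in DMSO (-2.95 ± 0.33, adjusted p = 1.96e-09).

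Other immediate early genes were more often higher than lower in A375 with dabrafenib, unlike EGR1 and IER3. Of 28 listed 23 were tested, and in A375 11 were higher and 2 lower with dabrafenib, where 17.9% and 20.7% of all genes were (median 0.98, against 0). With library totals in place of scaling factors 14 were higher and 2 lower. NR4A1, named after its values were seen, passed the filter on low counts only through A375 with dabrafenib, where it was high. It had 28.2 to 37.9 CPM there and 8.79 CPM in the A375 DMSO library. Counts over the 23 tested genes are therefore given as description. The 2 that fell were IER2, a nuclear immediate early protein, at 56.4 ± 9.97 CPM with dabrafenib (SD, n = 3) and 292 CPM in the DMSO library (-2.31 ± 0.24, adjusted p = 2.17e-09), and PHLDA1, a known ERK output (-1.04 ± 0.22, adjusted p = 0.000225). GADD45B, a stress gene of the p38 and JNK arm, was 117 ± 3.597 CPM with dabrafenib (SD, n = 3) against 32.7 CPM in the DMSO library (1.84 ± 0.32, adjusted p = 2.53e-05), and IER5L rose by 2.18 ± 0.43 (adjusted p = 0.000119). In A375-BIR edgeR called 0 of the 23 and so did DESeq2, with 1 at an unadjusted p under 0.05 in each. The smallest adjusted p in edgeR's test was that of HBEGF, a ligand of EGFR (-0.53 ± 0.15, adjusted p = 0.0543). It passed with library totals in place of scaling factors, when genes needed a mean count of at least 50, and without the second A375-BIR library with dabrafenib. HBEGF was 7.66-fold higher in A375-BIR than in A375 in dabrafenib (2.94 ± 0.23, adjusted p = 3.27e-13) and 7.02-fold higher in DMSO (2.81 ± 0.26, adjusted p = 2e-11). For the difference between responses 2 of the 23 were higher and 9 lower, where 12.7% and 9.87% of all genes were, with IER2 among the higher (2.07 ± 0.31, adjusted p = 7.77e-06) and GADD45B among the lower (-2.13 ± 0.48, adjusted p = 0.0013).

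**Figure D4:**
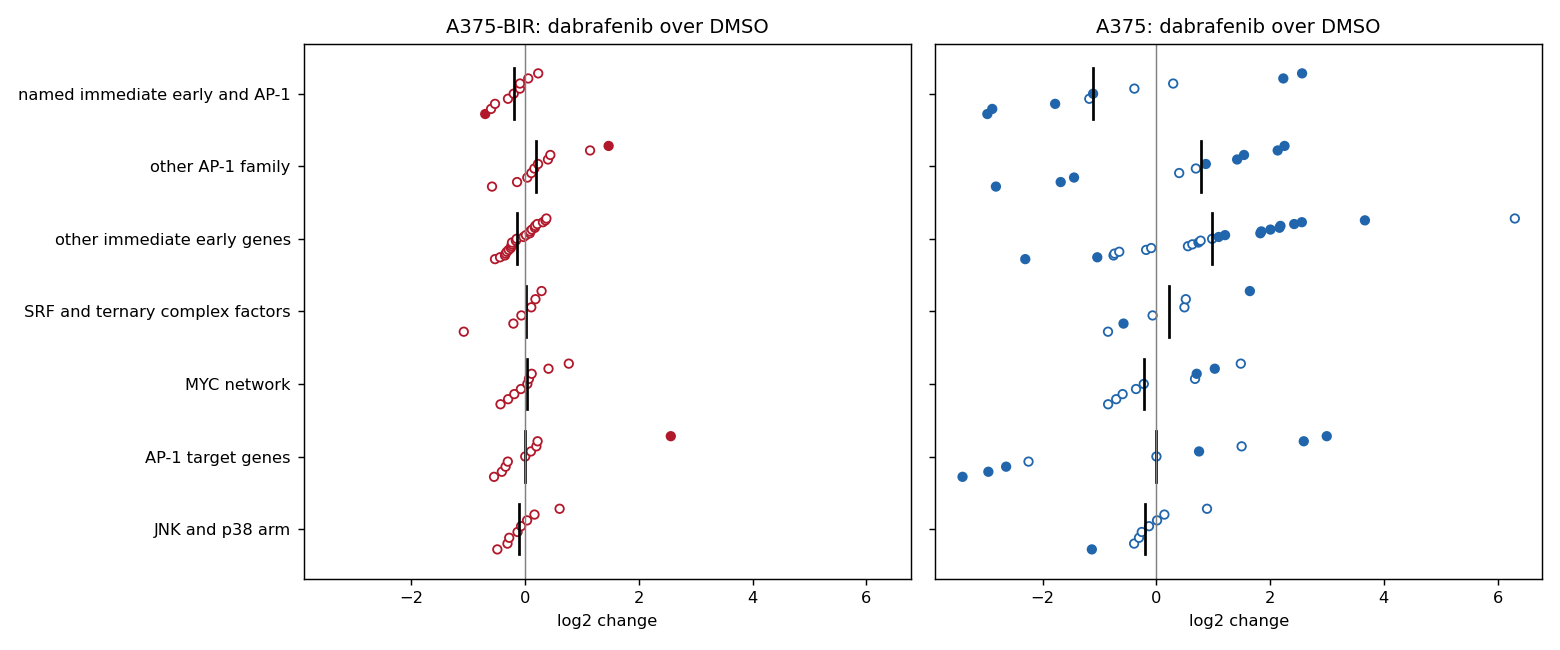
Log2 change with dabrafenib (x axis) of each tested gene in the named set and 6 related lists (y axis), in A375-BIR (left) and A375 (right). Filled points passed an adjusted p under 0.05 in edgeR's quasi-likelihood test, and vertical bars are list medians. The left panel has 3 filled points in all, and the right panel has them on both sides of 0 in most lists; the point at 6.30 in A375 is CCN1, a matricellular growth regulator with 69 counts in 3 dabrafenib libraries and 1 in the DMSO library, which did not pass (adjusted p = 0.066) and was named after its value was seen.

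Transcripts of regulators upstream were called in A375 at shares to be read against 17.9% of all genes higher and 20.7% lower, and in A375-BIR against 1.36% and 1.1%. Of the 6 SRF and ternary complex factor genes, all tested, 1 was higher and 1 lower in A375 with dabrafenib. ELK4, a ternary complex factor, rose (1.64 ± 0.33, adjusted p = 0.000171), and ELK3, another, was lower by a call that ended in 11 of 17 alternatives (-0.58 ± 0.23, adjusted p = 0.0467), among them the fits without any one of the A375-BIR DMSO libraries and without the second or the third A375 library with dabrafenib. In A375-BIR 0 of the 6 were called by edgeR or DESeq2, with 0 at an unadjusted p under 0.05. Of the 8 tested genes of the JNK and p38 arm 0 were higher and 1 lower in A375, with 2 at an unadjusted p under 0.05. The lower one was MAPKAPK2, a kinase downstream of p38 (-1.14 ± 0.23, adjusted p = 0.000152). In A375-BIR 0 of the 8 were called by edgeR or DESeq2, with 1 at an unadjusted p under 0.05 in each. Between the lines in DMSO 2 of the 8 were higher and 3 lower, where 25.1% and 26.7% of all genes were. In dabrafenib 0 were higher and 2 lower between the lines, where 22.6% and 20.2% of all genes were. Of the 6 SRF and ternary complex factor genes 1 was higher and 2 lower between the lines in dabrafenib, against the same 22.6% and 20.2%. MRTFA, among the lower, passed the filter on low counts only through A375 with dabrafenib, so its call supports nothing. These are transcript levels and say nothing of the activity of the kinases. Of the 9 tested genes of the MYC network, which encode partners and antagonists of MYC, 2 were higher and 0 lower in A375, led by the antagonist MXI1 (1.03 ± 0.25, adjusted p = 0.00138). Between the lines in dabrafenib 0 of the 9 were higher and 4 lower, where 22.6% and 20.2% of all genes were. In A375-BIR 0 of the 9 were called by edgeR or DESeq2, with 0 at an unadjusted p under 0.05.

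Of 15 listed genes known as AP-1 targets 9 were tested. In A375 with dabrafenib 3 were higher and 3 lower, where 17.9% and 20.7% of all genes were. The matrix protease inhibitor TIMP1 was 56.3 ± 4.92 CPM with dabrafenib (SD, n = 3) against 612 CPM in the DMSO library (-3.41 ± 0.23, adjusted p = 2.71e-14). The chromatin protein gene HMGA1 fell (-2.96 ± 0.22, adjusted p = 9.28e-13), as did CCND1, which encodes cyclin D1 (-2.64 ± 0.27, adjusted p = 1.28e-09). The haem-degrading enzyme gene HMOX1, also a target of NRF2 with small MAF proteins, rose 7.97-fold (adjusted p = 2.48e-11). In A375-BIR 1 of the 9 was higher and 0 lower, where 1.36% and 1.1% of all genes were, with 3 at an unadjusted p under 0.05, and DESeq2 called 0. That one was the cytokine gene IL6, at 18.9 ± 7.53 CPM with dabrafenib and 3.21 ± 1.12 CPM with DMSO (SD, n = 3 each, 2.56 ± 0.56, adjusted p = 0.0067), and its call ended with DESeq2 and without the second A375-BIR DMSO library or the first A375-BIR library with dabrafenib. IL6 had 0 counts in every A375 library. It passed the filter on low counts only through A375-BIR with dabrafenib, where it was high, so its call and p support nothing. Counts over the 9 tested targets are therefore given as description. Between the lines in dabrafenib 6 of the 9 were higher in A375-BIR and 1, HMOX1, lower (-3.12 ± 0.18, adjusted p = 1.62e-16), where 22.6% and 20.2% of all genes were. Among the higher was CCND1 (3.42 ± 0.23, adjusted p = 4.39e-15).

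Heat shock and chaperone genes, which answer stress and the handling of cells, had lower summed levels with dabrafenib than with DMSO in both lines, a sum that is mostly HSP90AA1. The 7 genes summed to 2820 to 3400 CPM in A375-BIR with dabrafenib and 3979 to 4456 CPM with DMSO, and to 2417 to 2933 CPM in A375 with dabrafenib and 4167 CPM in the A375 DMSO library, with HSP90AA1 at 1998 to 3486 CPM by group mean. Of the 7, edgeR and DESeq2 called 0 in A375-BIR, with 1 at an unadjusted p under 0.05 in each. There edgeR called 1.36% of all genes higher and 1.1% lower. In A375 edgeR called 2 of the 7 higher and 3 lower, where 17.9% and 20.7% of all genes were. The 2 higher were the stress-inducible HSPA1A (1.19 ± 0.33, adjusted p = 0.00532, a call that ended without the second A375 library with dabrafenib) and HSPA1B (2.58 ± 0.45, adjusted p = 2.54e-05). These are near-identical copies whose reads may be split uncertainly. Their part in the changes of the immediate early genes was not tested, nor was that of the mitochondrial share or of the time stamp of the A375 DMSO library.

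The 3 genes with the widest range of group means were IER3, EGR3 and EGR1. The genes whose centred log2 CPM over the 10 libraries lay closest to IER3 were the cell cycle kinase gene CDK2 (root mean square difference 0.19), the ribosomal protein gene RPS28 (0.22) and PHB1 (0.32). CDK2 averaged 91.5 CPM in A375-BIR with dabrafenib, 123 with DMSO, 118 in A375 with dabrafenib and 776 in the A375 DMSO library. Closest to EGR1 were EIF6 (0.24), GFUS (0.27) and the replication helicase gene MCM7 (0.28), and closest to EGR3 were SSH1 (0.44), MYO5A (0.45) and PITPNM2 (0.46). Those of EGR3 rest on its 61 counts in all. A likeness over 10 libraries in 4 groups, 1 of them a single library, is a description with no test.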

How the data were processed

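RNA of 12 libraries in 4 groups was measured by 3′ tag sequencing (QuantSeq FWD, single reads of 100 bases from 250 ng RNA, per the labels' protocols). The authors deposited whole-number counts per gene, with no normalization. The submitters' processing notes name hg38. The sources used here name no aligner, counter, annotation or strand setting. Lines for reads given to no gene were left out. Symbols matched 32807 of 33694 identifiers, and positions come from GENCODE 29.

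The 10 human libraries were fitted together with edgeR 4.0.16 in R 4.3.3 (filterByExpr at its defaults with a minimum count of 10, TMM, robust glmQLFit, 1 coefficient per group, 6 residual degrees of freedom), and p-values were adjusted by Benjamini-Hochberg over 10236 genes. The filter asks for about 17.5 CPM in at least 1 library. CPM use TMM-scaled totals. The design had assumed 3 A375 DMSO libraries. The lone one is assumed to vary like the other groups. For 1 to 3 counts in a group the ratio of summed counts is given with an exact 95% interval. Intervals cover counting error only. The genes and lists were chosen with earlier results of these data known. Named are the 10 genes, up to 4 genes with the smallest p of each list, and the 3 genes nearest in profile to each of the 3 widest-ranging genes. Further names are stated as chosen after their values were seen, and 1 gene that the rule names is not reported here. The fit was tested on simulated counts. Alternatives were other scalings, DESeq2 1.42.0, other filters, fewer groups, a replicate block, thinning and each library left out. A p-value measures the spread between samples labelled biological replicates.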

Additional observations from a re-analysis of the deposited data

Results flagged for a closer look

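The responses of the lines to dabrafenib differed for 5 of the 9 tested genes by a test of the difference itself (edgeR's quasi-likelihood test, response of A375-BIR minus response of A375). Of the 9, 3 were higher and 2 lower, where 12.7% and 9.87% of all genes tested were. The log2 difference was 2.45 for EGR1 (adjusted p = 1.13e-06), 2.19 for IER3 (adjusted p = 3.17e-06) and 1.18 for FOSL1 (adjusted p = 0.0414), which fell less or did not pass in A375-BIR. It was -2.17 for FOSL2 (adjusted p = 3.69e-05) and -2.76 for JUN (adjusted p = 9.36e-08), which rose in A375. All 5 rest on the single A375 DMSO library.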

How the results depend on the processing

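Calls that held in every alternative that could be fitted were those of EGR1, IER3, FOSL1, FOSL2 and JUN for the A375 response, EGR1, FOSL1 and JUN between the lines in dabrafenib, EGR1, IER3, FOSL2, JUN and MAFF between them in DMSO, and EGR1, IER3, FOSL2 and JUN for the difference between responses. The A375 DMSO library could not be left out. Over the 9 genes and 5 comparisons, alternatives other than leaving out a library kept direction and call 334 times, ended a call 16 times, added one 2 times and reversed an uncalled change 5 times; leaving out a library did so 369, 17, 4 and 15 times. The 5 reversals were EGR3 in A375-BIR with DESeq2 (0.38) and with the block (0.0635), JUNB between the lines in dabrafenib (0.0536) and MAFF in the difference (-0.20) with library totals, and FOSL1 between the lines in DMSO when thinned (-0.062). Leaving out 1 library at a time gave changes of both signs: in A375-BIR for EGR3 (-2.97 to 2.78), FOS (-0.0754 to 0.485), FOSL2 (-0.0369 to 0.172) and JUNB (-0.302 to 0.168), in A375 for JUNB (-0.0716 to 0.525), between the lines in dabrafenib for FOS (-0.0074 to 0.783) and JUNB (-0.297 to 0.299), and in the difference for EGR3 (-1.78 to 3.95) and MAFF (-0.320 to 0.300); the cause was not tested.

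The count of the 10 genes called in A375-BIR, 1, became 0 when genes needed a mean count of 50 or when only the groups compared were fitted, and 0 to 2 without 1 library. It became 3 in place of 5 between the lines in dabrafenib with that filter or thinning, and 4 in place of 7 between them in DMSO with that filter, which tests fewer genes. Over all genes the counts called were 252 in A375-BIR, 3948 in A375, 4374 and 5298 between the lines in dabrafenib and in DMSO, and 2313 for the difference. With DESeq2 they were 106, 2485 and, for the difference, 1153. Under the filter at a mean count of 50 they were 137, 1669, 1764, 1895 and 1133. When thinned to the smallest library they were 65, 1409, 2473, 1824 and 603, and with only the A375-BIR groups 125. Leaving out each library gave 106 to 558, 3091 to 4523, 3423 to 4417, 4546 to 5909 and 1644 to 3030. Library totals in place of TMM moved the median of all genes to 0.26 in A375, 0.16 and 0.41 between the lines in dabrafenib and in DMSO, and -0.24 for the difference, and the share of higher calls to 63.3% from 46.4% in A375, to 69.1% from 48.5% between the lines in DMSO and to 34.3% from 56.3% for the difference. Such a shift is large beside changes under 0.5 but small beside those of EGR1, IER3, FOSL2 and JUN in A375.

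Same-numbered libraries did not deviate together (correlations -0.12 to 0.11), so no pairing was seen. In libraries this shallow such correlations cannot exclude a shared culture or day. With the replicate number as a block 1, 6, 5, 6 and 5 of the genes were called. FOS was lost in A375 (-0.79, adjusted p = 0.172) and between the lines in DMSO (-0.73, adjusted p = 0.115), and EGR3 was added in A375 (-2.51, adjusted p = 0.0281). The block called 239, 3296, 4292, 4579 and 1750 of all genes. Depth limits MYC and EGR3, since a count of 0 in a library allows 1.88 to 16.9 CPM.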
